A study of Mus musculus with 3 samples.

Results

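The endoderm lineage transcription factors *Gata4*, *Gata6*, *Sox17*, *Sox7*, *Hnf4a*, *Foxa1* and *Foxa2* were followed as a listed set of 7 of the 32285 genes in the count tables, mainly in visceral endoderm (VE) cells from bilayered embryo-like aggregates (BELAs) and from VE cysts. These aggregates model the mouse embryo around implantation, in which a VE layer surrounds the epiblast (Epi). Single-cell transcriptomes came from 3 libraries, 1 for each of BELAs, VE cysts and Epi cysts, with 10x Genomics 3' chemistry, which counts captured mRNA molecules by unique molecular identifiers (UMIs). All 3 were made from E14tg2a embryonic stem cells carrying a doxycycline-inducible GATA4 transgene (iGATA), for BELAs and VE cysts from its clone C6.

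For BELAs, cells received 0.5 µg/ml doxycycline for 8 h in 2i + LIF and then N2B27 medium for 16 h, after which they were seeded at 30000 cells per cm2 and grown in N2B27 for 3 days. For VE cysts, the same 8 h pulse was followed by a further 16 h of doxycycline in N2B27 to which FGF4 (10 ng/ml) and heparin (1 µg/ml) were added, and these additions stayed in the medium for the 3 days after re-seeding. Epi cysts grew in matrigel, for 1 day in 2i + LIF and for 3 days in N2B27, and their labels name no doxycycline. BELAs and VE cysts were picked by hand, and VE cysts with a visible Epi-like core were left out, so the number of Epi cells in that library was partly set by picking. Library, medium, length of the doxycycline pulse and the presence of Epi cells changed together between BELAs and VE cysts and cannot be told apart. The files name the inducible gene only as *Gata4*, and transcripts of the transgene and of the endogenous gene cannot be told apart.

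Cells needed 4000 or more detected genes and no more than 10% mitochondrial UMIs. A cell was called VE when its UMIs of *Gata6*, *Sox17*, *Dab2* and *Cubn* together exceeded those of *Pou5f1*, *Sox2*, *Nanog* and *Fgf4*, and Epi when they were fewer. This gave 542 VE and 868 Epi cells in BELAs, 577 VE and 44 Epi cells in VE cysts, and 1 VE and 655 Epi cells in Epi cysts, with 5 tied cells left out. By 1 measure the call was close in few cells, since the larger sum was at most 2-fold the smaller in only 6 VE cells and 5 Epi cells of BELAs. By a wider measure, the smaller sum was at least 10% of both sums together in 29 VE and 69 Epi cells of BELAs. Without thinning, *Pou5f1* had a UMI in 51.8% of VE cells of BELAs. VE cells had a median of 90251 UMIs in BELAs and 56914 in VE cysts, Epi cells had 78973 in BELAs and 60102 in Epi cysts, and no barcode was shared between libraries. Of 15 VE markers that the rule did not use, 14 were past 2-fold higher in VE than in Epi cells of BELAs, where 15.7% of 8401 genes were. Among them were the endocytic receptor genes *Lrp2* and *Amn*. This call was made after 5 CPM (counts scaled to a common total) was added to each level. Because *Gata6* and *Sox17* helped to define the VE cells, their higher level there is not evidence.

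The factors form a regulatory chain in early endoderm. GATA6 is needed to specify primitive endoderm, the source of both visceral and parietal endoderm, and GATA4, SOX17 and SOX7 follow it. HNF4A, a nuclear receptor, and the forkhead factors FOXA1 and FOXA2 act in the differentiated VE, where HNF4A drives genes for apolipoproteins and other secreted serum proteins. FOXA2 is also needed in the anterior visceral endoderm (AVE), a signalling group of VE cells that patterns the epiblast.

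The genes lie on several mouse chromosomes (GENCODE, GRCm38). *Sox17* is at chr1:4490931-4497354 on the minus strand, *Foxa1* at chr12:57540628-57546916 on the minus strand, *Gata4* at chr14:63198922-63271692 on the minus strand and *Sox7* at chr14:63943673-63950732 on the plus strand. *Gata4* and *Sox7* thus share chromosome 14, 672 kb apart with 6 protein-coding genes between them. *Foxa2* at chr2:148042877-148046969 on the minus strand and *Hnf4a* at chr2:163506808-163572910 on the plus strand share chromosome 2. *Sox17* and *Hnf4a* each overlap a gene on the opposite strand (*Gm37587* and *Hnf4aos*), and reads of such pairs can be told apart only where strand was used in counting.

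Promoter windows of 250 bases before a RefSeq start (GRCm38.p6) were at hand for 3 of the 7 factors, *Foxa1*, *Foxa2* and *Hnf4a*, the later factors of the set. They were searched on both strands for a GATA motif (AGATAA or TGATAA), a FOXA motif (TGTTTAC or TATTTAC or TGTTTGC or TATTTGC), a SOX motif (ACAATG or ACAATA) and an HNF4 motif (CAAAGTCCA or CAAAGGTCA or CAAAGTTCA). The *Foxa1* window held 1 FOXA match, 1 of the 3 *Foxa2* windows held 1 GATA match and 1 of the 2 *Hnf4a* windows held 1 GATA match, with no other match in these 6 windows. Among 32851 windows of the same length, 16.6% held the GATA, 11.9% the FOXA, 17.4% the SOX and 1.14% the HNF4 motif, so a single match is common. The *Foxa1* and *Foxa2* windows with a match, shown because they carry the letters of 2 of the factors compared here, are printed 5′ to 3′ on the gene's strand with the match in capitals. The *Foxa1* stretch is chr12:57546122-57546361, 240 bases outside annotated exons on the minus strand, with the FOXA match read as GTAAACA on the gene's strand from base -141. The *Foxa2* stretch is chr2:148045465-148045714 on the minus strand, with AGATAA from base -183. Both stretches lie within the gene spans given above, so they precede starts inside the annotated genes. The *Foxa2* window just before the annotated gene, chr2:148046970-148047219, held no match.
Foxa1: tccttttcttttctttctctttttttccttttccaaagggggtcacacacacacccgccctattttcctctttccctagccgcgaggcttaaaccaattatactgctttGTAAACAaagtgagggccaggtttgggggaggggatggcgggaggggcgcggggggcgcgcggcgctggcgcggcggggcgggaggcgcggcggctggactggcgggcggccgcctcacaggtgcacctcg
Foxa2: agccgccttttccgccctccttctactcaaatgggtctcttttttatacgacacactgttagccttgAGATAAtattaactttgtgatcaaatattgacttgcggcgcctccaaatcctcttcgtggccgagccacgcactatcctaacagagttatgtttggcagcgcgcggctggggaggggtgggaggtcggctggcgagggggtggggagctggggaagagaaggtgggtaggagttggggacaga

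Levels are a gene's share of the UMIs pooled over a group of cells, in CPM (counts scaled to a common total), with exact 95% Poisson intervals. The 3' chemistry gives 1 UMI per captured molecule whatever the gene's length, so levels of different genes are set side by side as counted UMIs. Whether capture was equal between genes was not tested. Each condition had 1 library, and cells of a library do not stand in for replicates, so nothing was tested. Differences between libraries lack a replicate check, and intervals cover counting error only.

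The GATA factors had the most and the third most UMIs of the set. *Gata6*, which specifies primitive endoderm, stood at 231 (227 to 235) CPM in VE cells of BELAs and 298 (292 to 304) CPM in VE cells of VE cysts. Its paralogue *Gata4*, which acts downstream of it and was the gene induced in these cells, stood at 104 (101 to 107) CPM in BELAs and 126 (123 to 130.0) CPM in VE cysts. UMIs of *Gata6* outnumbered those of *Gata4* 2.22-fold in BELAs and 2.36-fold in VE cysts, a close ratio in both.

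Of the SOX factors, *Sox17*, a factor of both extraembryonic and definitive endoderm, stood at 124 (121 to 127) CPM in VE cells of BELAs and 156 (152 to 160.4) CPM in VE cells of VE cysts. *Sox7*, its close relative from the same SOXF subgroup, stood at 44.2 (42.4 to 46.0) CPM in BELAs and 29.8 (28.1 to 31.7) CPM in VE cysts. The balance of this pair therefore differed between the libraries, with 2.81 *Sox17* UMIs for each *Sox7* UMI in BELAs (2.68 to 2.94) and 5.24 in VE cysts (4.90 to 5.60).

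Among the later factors, *Foxa2*, a pioneer factor that opens chromatin in endoderm, stood at 51.7 (49.8 to 53.7) CPM in VE cells of BELAs and 78.9 (76.0 to 81.9) CPM in VE cysts. *Hnf4a* stood at 24.9 (23.6 to 26.2) CPM in BELAs and 15.0 (13.8 to 16.4) CPM in VE cysts. *Foxa1*, the paralogue of *Foxa2*, was rare, with 96 UMIs in all VE cells of BELAs (1.76 CPM, 1.43 to 2.15) and 21 UMIs in those of VE cysts (0.592 CPM, 0.366 to 0.905). *Foxa2* outnumbered *Foxa1* 29.4-fold (24.0 to 36.4) in BELAs and 133-fold (87.0 to 216) in VE cysts. The order of levels was *Gata6*, *Sox17*, *Gata4*, *Foxa2*, *Sox7*, *Hnf4a* and *Foxa1* in both libraries, and no intervals of neighbours in it overlapped.

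**Figure D1:**
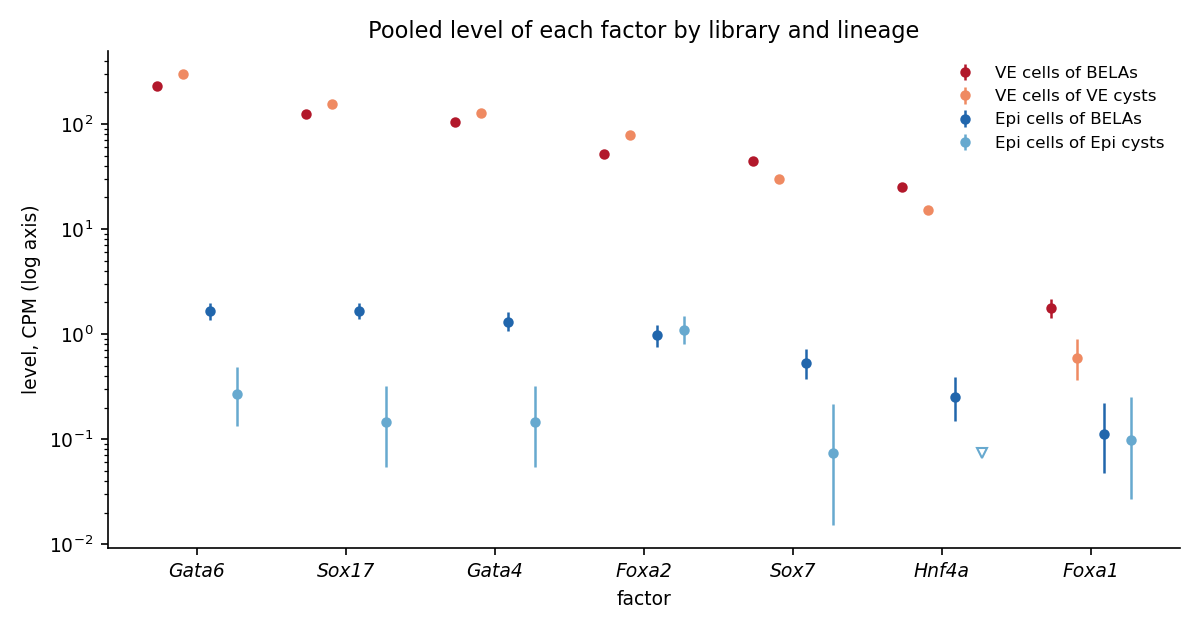
Pooled level of each factor in CPM (log axis) in VE cells of BELAs, VE cells of VE cysts, Epi cells of BELAs and Epi cells of Epi cysts. Points are pooled levels and bars exact 95% Poisson intervals. The open triangle marks a count of 0 (*Hnf4a* in Epi cysts), drawn at the level that 3 UMIs would give (0.0735 CPM). *Gata6* is highest in both VE groups (231 and 298 CPM) and *Foxa1* lowest (1.76 and 0.592 CPM).

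Between the libraries, *Sox7*, *Hnf4a* and *Foxa1* were higher in VE cells of BELAs than in those of VE cysts, and *Gata4*, *Gata6*, *Sox17* and *Foxa2* were lower. The ratio of BELAs over VE cysts was 1.48 (1.38 to 1.59) for *Sox7*, 1.65 (1.49 to 1.83) for *Hnf4a* and 2.98 (1.84 to 5.03) for *Foxa1*. It was 0.774 (0.755 to 0.795) for *Gata6*, 0.794 (0.766 to 0.823) for *Sox17*, 0.824 (0.792 to 0.857) for *Gata4* and 0.656 (0.622 to 0.691) for *Foxa2*. After 5 CPM was added to each level, which damps ratios of low genes, 0 of the 6 factors with at least 10 CPM were past 2-fold, where 5.05% of 8213 genes were (1.81% higher and 3.24% lower in BELAs). The median log2 ratio on that scale was -0.27 for the 7 factors and -0.12 for all genes. In pooled levels of this kind, fewer cells that express a gene and fewer UMIs per cell cannot be told apart, which the values per cell below address.

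Against Epi cells, of the 5 factors outside the lineage rule 4 were past 2-fold higher in VE cells of BELAs, where 15.7% of 8401 genes were (9.67% were lower, 25.3% in either direction). These were *Gata4*, *Sox7*, *Hnf4a* and *Foxa2*, with VE over Epi ratios in BELAs of 79.0 (64.5 to 97.8), 83.8 (60.9 to 119), 99.6 (62.8 to 169) and 53.3 (42.0 to 68.6). *Foxa1*, below 10 CPM in both, had a ratio of 15.9 (7.74 to 37.8). Between VE cells of VE cysts and Epi cells of Epi cysts, the same 4 factors were past 2-fold higher, where 20.2% of 8864 genes were (12.9% lower, 33.1% in either direction).

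To compare cells of different depth, each cell was thinned at random to 40000 UMIs, which kept 514 VE cells of BELAs and 473 of VE cysts. Most VE cells held UMIs of several factors. A median of 5 of the 7 had at least 1 UMI per cell in both libraries, and 92.8% of VE cells of BELAs and 94.5% of those of VE cysts held at least 4. All 7 were found together in 6 cells of BELAs and 2 of VE cysts. *Gata6* and *Sox17* among them helped to define the cells. In BELAs *Gata4* and *Gata6* were found together in 94.9% of cells, where the product of their single shares gives 94.8%. For *Sox17* and *Sox7* it was 65.4% against 62.7%, and for *Sox17* and *Hnf4a* 40.7% against 42.2%. The number of factors per cell is therefore not read as a link between them.

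*Gata6* and *Gata4* were near universal. *Gata6* had a UMI in 98.6% of thinned VE cells of BELAs and 98.7% of those of VE cysts (median 9, range 0 to 37, and median 10, range 0 to 49), and *Gata4* in 96.1% and 97.7% (median 4, range 0 to 16, and median 5, range 0 to 18). *Sox17* had a UMI in 88.5% (85.4 to 91.1%) of the cells of BELAs and 94.1% of those of VE cysts, and *Foxa2* in 79.6% and 92.6%. The lower factors went the other way between libraries, with *Sox7* detected in 70.8% of cells of BELAs and 55.8% of those of VE cysts, *Hnf4a* in 47.7% and 38.9%, and *Foxa1* in 4.09% (2.55 to 6.18%) and 2.75%. As a background, Epi cells of BELAs thinned to the same 40000 UMIs had a UMI of *Sox17* in 5.49%, *Gata6* in 4.74%, *Foxa2* in 3.75%, *Gata4* in 3.62%, *Sox7* in 1.87%, *Hnf4a* in 1.12% and *Foxa1* in 0.499%. Without thinning, at the median depths given above, *Hnf4a* had a UMI in 69.2% and *Foxa1* in 9.96% of the VE cells of BELAs.

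The factors differed in how unevenly they were spread over VE cells. The variance over the mean of thinned counts (Fano factor), which is 1 for pure counting noise, was 4.45 for *Gata6* and 3.93 for *Sox17* in BELAs and 6.08 and 3.23 in VE cysts. For *Gata4* it was 1.66 in BELAs and 1.70 in VE cysts, although its level was not far from that of *Sox17*. The Fano factor grows with the mean, and the spread beyond counting noise as a share of the mean gave another order. In BELAs it was 0.397 for *Gata4*, 0.598 for *Gata6*, 0.600 for *Foxa2*, 0.654 for *Sox7*, 0.743 for *Sox17* and 0.994 for *Hnf4a*. In VE cysts it was 0.374 for *Gata4*, 0.449 for *Foxa2*, 0.529 for *Hnf4a*, 0.588 for *Sox17*, 0.647 for *Gata6* and 0.910 for *Sox7*, so *Gata4* was the most even of these 6 in both. *Hnf4a* was more uneven in BELAs than in VE cysts (1.93 and 1.15), and so was *Foxa1* (1.61 and 0.975). *Sox17* was at 0 in 11.5% of thinned VE cells of BELAs, where a Poisson count of the same mean gives 0.493%, and in 5.92% of those of VE cysts, where it gives 0.160%.

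**Figure D2:**
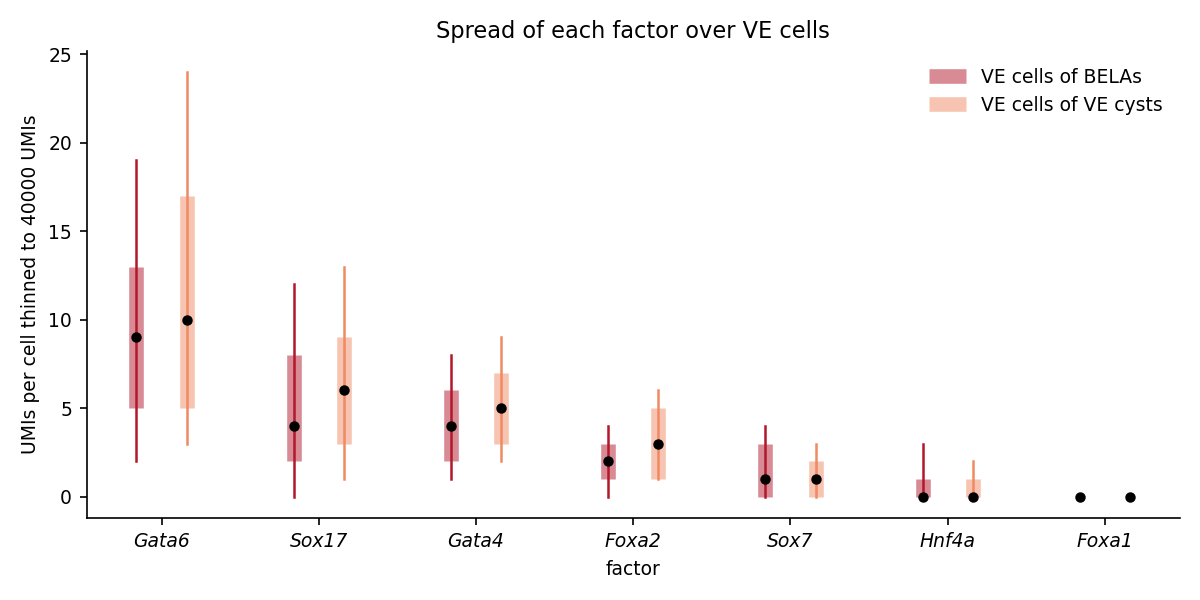
UMIs of each factor per VE cell thinned to 40000 UMIs, in BELAs and VE cysts. Dots are medians, thick bars quartiles and thin lines the 10th to 90th percentile over cells. In UMIs, *Gata6* and *Sox17* spread most widely, and the medians of *Hnf4a* and *Foxa1* are 0 in both libraries.

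The 59 VE cells of BELAs without a thinned *Sox17* UMI were also low in other early factors. *Gata6* stood at 133 CPM in them and at 242 CPM in the 455 cells with a *Sox17* UMI, and *Sox7* at 24.9 CPM without and 46.7 CPM with it. *Gata4* was close in both, at 91.6 CPM without and 105 CPM with it. *Hnf4a* and *Foxa2* were higher without *Sox17*, at 38.8 against 23.2 CPM and 62.6 against 50.1 CPM. Of the 59 cells, 25 (42.4%) had at least 20 summed UMIs of the AVE markers listed further below, against 43 of the 455 (9.45%). These differences in BELAs thus overlap with those along the AVE sum. In VE cysts, *Gata6* stood at 149 CPM in the 28 cells without *Sox17* and at 311 CPM in the others, and *Hnf4a* at 22.5 CPM without and 14.5 CPM with *Sox17*. There, unlike in BELAs, *Foxa2* was lower without *Sox17* (57.3 against 80.1 CPM). *Gata4* (85.3 against 128 CPM) and *Sox7* (18.3 against 31.3 CPM) were lower without it as well. In the 245 VE cells of BELAs with a thinned *Hnf4a* UMI, *Gata6* stood at 188 CPM and *Sox17* at 95.5 CPM, against 270.1 and 151 CPM in the 269 cells without one.

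Within a library, *Gata6*, *Sox17* and *Sox7* varied together, and in BELAs *Hnf4a* varied against *Gata6* and *Sox17*. Spearman correlations of thinned counts describe this over 514 VE cells of BELAs and 473 of VE cysts. Cells of each share a library and a culture and were set to 1 depth. *Gata6* and *Sox17* had 0.46 in BELAs and 0.24 in VE cysts, *Gata6* and *Sox7* 0.25 and 0.26, and *Sox17* and *Sox7* 0.22 and 0.16. The correlations of *Gata4* were lower, with 0.18 in BELAs and 0.12 in VE cysts for *Gata6*, and 0.14 and 0.13 in the same order for *Sox17*. With counting noise taken out of the variances, these were 0.47 and 0.16 for *Gata6*, and 0.34 and 0.26 for *Sox17*. On that scale *Gata6* and *Sox7* had 0.49 in BELAs and 0.43 in VE cysts, and *Sox17* and *Sox7* 0.34 and 0.32. The lower raw values of *Gata4* are thus not read as a weaker tie in BELAs. Both *Gata6* and *Sox17* entered the VE rule, but with *Dab2* and *Cubn* alone in the rule 538 of the 542 VE cells of BELAs and all 577 of VE cysts were called again, and no correlation moved by over 0.05.

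*Hnf4a* ran against *Gata6* with -0.33 in BELAs and -0.03 in VE cysts, and against *Sox17* with -0.29 and -0.12. With *Gata4* it had 0.01 in BELAs and -0.01 in VE cysts, and with *Sox7* -0.07 in both. *Hnf4a* had 0.16 with *Foxa1* and 0.19 with *Foxa2* in BELAs, and -0.02 and -0.03 in VE cysts, but a second random thinning gave 0.095 for *Hnf4a* and *Foxa2* in BELAs. That second draw moved 9 of the 42 pair values by over 0.05, so differences of this size are not read. As a scale for these values, the correlations of *Gata6* with 7486 genes in VE cells of BELAs had quartiles of -0.07 and 0.05 and 1st and 99th percentiles of -0.30 and 0.29. *Gata6* with *Sox17* lay above that range and *Gata6* with *Hnf4a* below it. After counting noise was taken out of the variances, the correlation of *Gata6* and *Sox17* was 0.58 in BELAs and 0.31 in VE cysts, and that of *Gata6* and *Hnf4a* was -0.50 and -0.11. Most of the other pairs are too weak to read in counts this sparse.

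**Figure D3:**
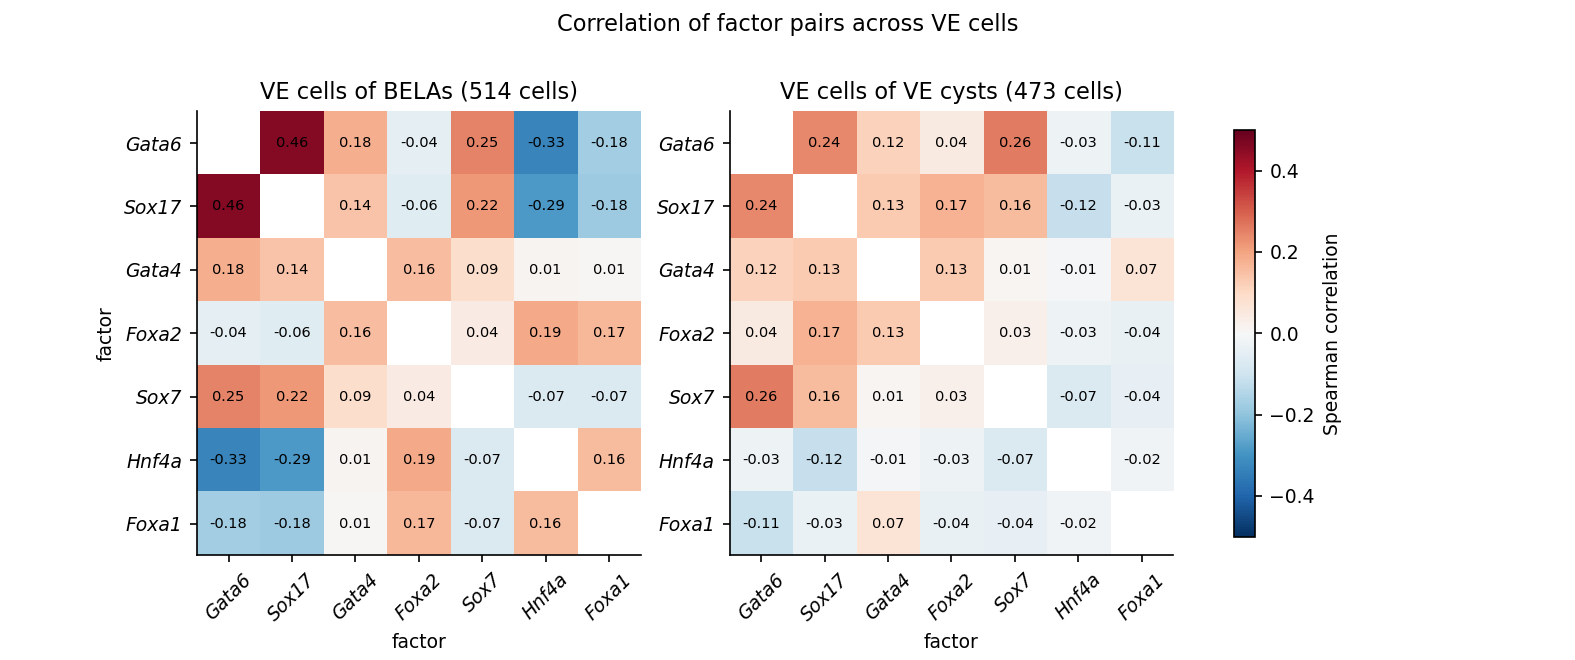
Spearman correlation of thinned counts for each pair of factors over 514 VE cells of BELAs (left) and 473 VE cells of VE cysts (right), with the colour scale and the printed numbers giving the coefficient. *Gata6* and *Sox17* reach 0.46 in BELAs and 0.24 in VE cysts, and *Gata6* and *Hnf4a* -0.33 and -0.03.

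In BELAs, *Gata6*, *Sox17*, *Hnf4a* and the forkhead factors also varied with markers of the AVE. The summed UMIs of *Cer1*, *Lefty1*, *Sfrp1*, *Lhx1*, *Otx2*, *Eomes* and *Gsc*, none of them among the 7 factors, were 0 in 148 thinned VE cells of BELAs, 1 to 2 in 159, 3 to 5 in 83 and 6 to 133 in 124. These are ranges of a sum, not cell types. VE cells of VE cysts reached sums of only 0 to 5. Thinned Epi cells of BELAs had a median of 6 (quartiles 4 and 9), so the highest range opened at the median of Epi cells. The list totalled 226 CPM in BELA VE cells and 12.9 CPM in VE cyst VE cells.

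*Gata6* and *Sox17* were lower the higher the AVE sum. *Gata6* stood at 293, 262, 202 and 145 CPM from the lowest to the highest range of the AVE sum, and *Sox17* at 179, 142, 106 and 55.6 CPM. The ratio of the highest over the lowest range was 0.495 (0.468 to 0.522) for *Gata6* and 0.310 for *Sox17*. The gradient was weaker for *Sox7*, with 49.4, 50.2, 44.7 and 31.5 CPM, and weakest for *Gata4*, with 120, 103, 87.8 and 98.96 CPM.

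*Hnf4a* and the forkhead factors were higher at the AVE end. *Hnf4a* stood at 10.4, 21.3, 31.4 and 39.6 CPM across the same ranges, a ratio of 3.83 (3.17 to 4.64) between the ends. *Foxa2* was level over the first 3 ranges, with 43.6, 45.2 and 40.9 CPM, and stood at 75.3 CPM in the highest. Of 94 *Foxa1* UMIs in these cells, 85 lay in the highest range. Its level was 6.39 CPM there, against 0.0735 CPM in the lowest (1 UMI), a ratio of 87.0 with a counting interval of 15.2 to 3477.

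The *Foxa1* cells can be placed more closely. Of the same 94 UMIs, counted before thinning, 73 lay in the 68 cells whose AVE sum was 22 or more. In those cells 32 of 68 had a UMI (47.1%), and in the other VE cells 20 of 446 (4.48%), at median depths of 90120 UMIs for the 68 cells and 93086 for the others. In VE cysts 17 of 473 cells had one (3.59%). The 21 cells of BELAs with a *Foxa1* UMI after thinning had *Foxa2* at 85.8 CPM and the AVE factor gene *Lhx1* at 244 CPM, against 50.1 and 43.7 CPM in the other 493.

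*Otx2* and *Lefty1* of the AVE list were also Epi genes in these libraries, with 25.1 and 9.04 CPM in VE cells and 106 and 56.9 CPM in Epi cells of BELAs, while *Lhx1* was at 51.3 CPM in VE and 0.749 CPM in Epi cells. Without *Otx2* and *Lefty1*, a choice made after seeing the data, the AVE sum had correlations of -0.38 with *Gata6*, -0.47 with *Sox17*, 0.43 with *Hnf4a* and 0.32 with *Foxa2*, against -0.39, -0.50, 0.40 and 0.29 with the full sum. A list of 10 formative and Epi genes had a median of 69.5 UMIs in thinned VE cells of BELAs (3 to 212) and 20 in those of VE cysts (0 to 297), with all 10 genes detected in both. Its sum had correlations of 0.24 and 0.37 with *Gata6* in BELAs and VE cysts, 0.19 and 0.27 with *Sox7* and -0.12 and -0.06 with *Hnf4a*. Levels by range of the AVE sum were computed with the full sum only. Whether Epi RNA took part in the levels of these factors was not tested.

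**Figure D4:**
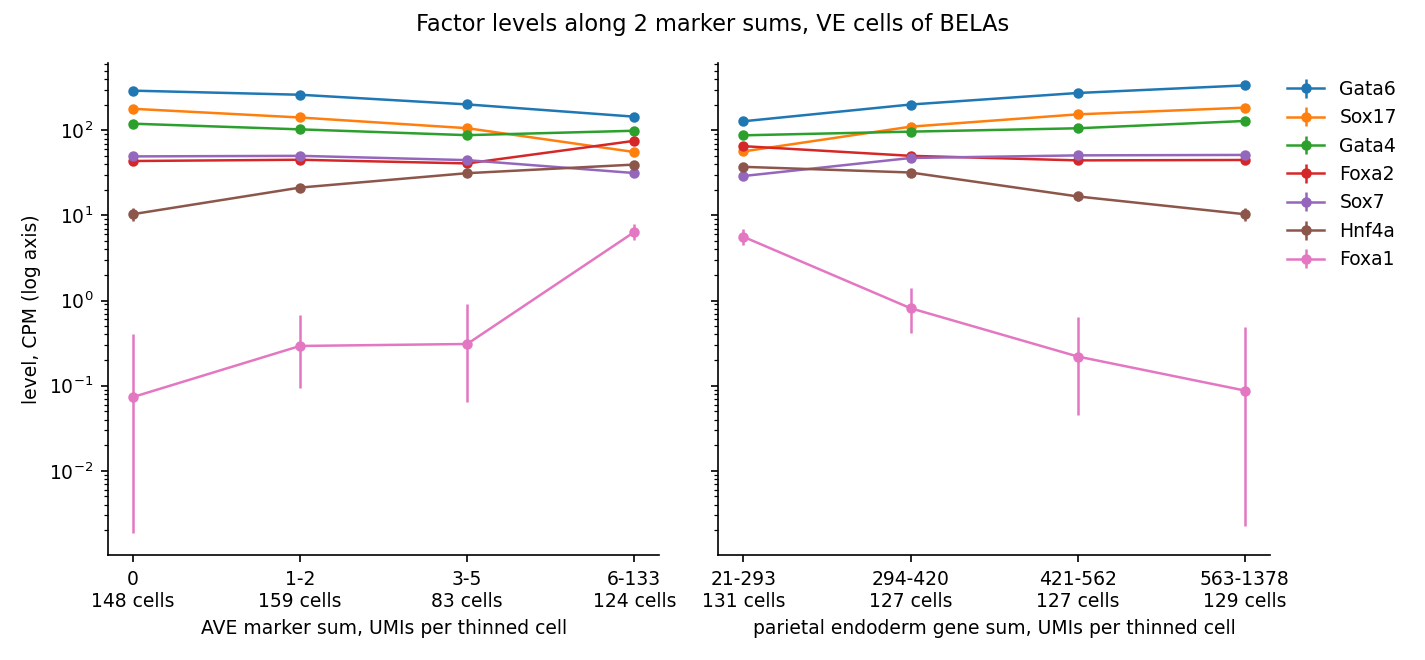
Level of each factor in CPM (log axis) in VE cells of BELAs, by range of the summed UMIs of AVE markers (left) and of parietal endoderm genes (right) per thinned cell, with the number of cells under each range. Points are pooled levels and bars exact 95% Poisson intervals. Along the AVE sum *Hnf4a* goes up (10.4 to 39.6 CPM) while *Sox17* goes down (179 to 55.6 CPM), and *Foxa1* is high only in the last range (6.39 CPM).

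The ratios between BELAs and VE cysts also changed with the AVE sum of the BELA cells chosen. When only the 148 VE cells of BELAs with an AVE sum of 0 were set against VE cells of VE cysts, the ratio was 0.984 (0.948 to 1.02) for *Gata6*, 0.949 (0.896 to 1.00) for *Gata4* and 1.15 (1.09 to 1.204) for *Sox17*. *Sox17*, lower in BELAs over all VE cells, was thus higher in these, and *Hnf4a*, higher in BELAs over all VE cells, was lower (0.688, 0.568 to 0.830). Cells were chosen by the AVE sum in BELAs only, and all VE cells of VE cysts were kept. Both factors varied with that sum in BELAs, so shifts in these directions follow from the choice. With only the highest AVE range left out, the log2 ratios of *Sox17* and *Hnf4a* kept their sign. *Foxa2* stayed lower (0.553, 0.505 to 0.605) and *Sox7* higher (1.66, 1.502 to 1.83). These low-AVE cells had a median of 82898 UMIs.

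**Figure D5:**
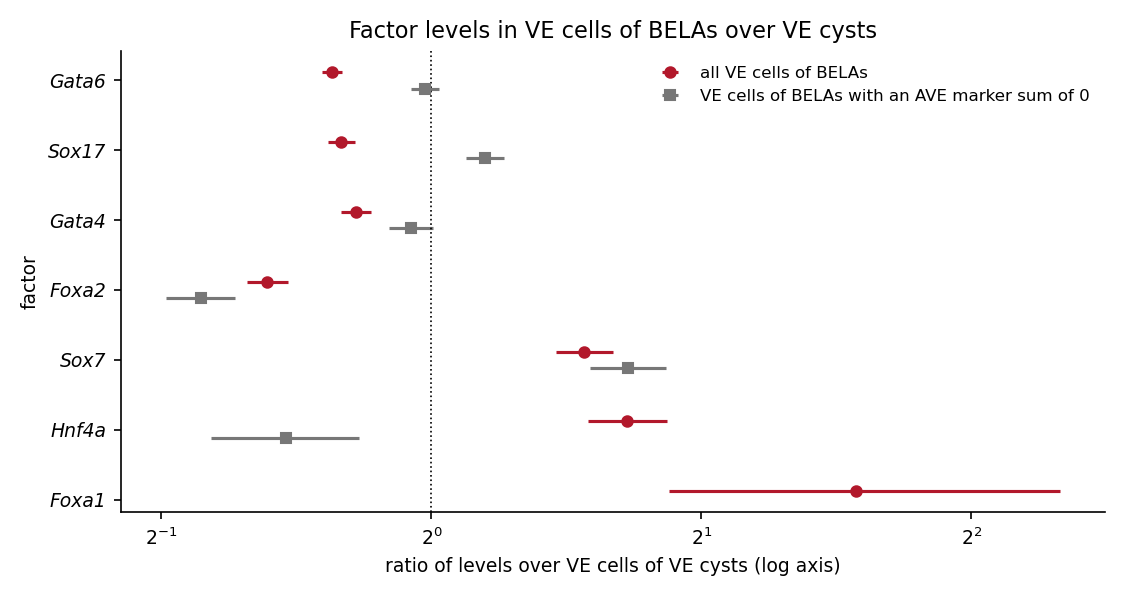
Ratio of the level of each factor in VE cells of BELAs over VE cells of VE cysts (log axis), for all VE cells of BELAs (red) and for the 148 with an AVE marker sum of 0 (grey). Points are ratios of pooled levels and bars exact 95% intervals for counting error. *Hnf4a* lies at 1.65 with all cells and at 0.688 with the low-AVE cells, and *Foxa1* has no grey point because it had 1 UMI there.

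Parietal endoderm genes ran against the AVE sum in BELAs. Their summed UMIs, over 14 genes including the basement membrane genes *Col4a1*, *Lama1* and *Sparc*, had a correlation of -0.68 with the AVE sum in VE cells of BELAs and -0.07 in VE cysts. The parietal sum had correlations of 0.55 and 0.30 with *Gata6* in BELAs and VE cysts, 0.49 and 0.24 with *Sox17* and 0.20 and 0.26 with *Gata4*. For *Hnf4a* they were -0.41 in BELAs and -0.08 in VE cysts. The highest over the lowest range gave ratios, in BELAs and in VE cysts, of 2.64 and 1.75 for *Gata6*, 3.27 and 1.72 for *Sox17*, 1.47 and 1.48 for *Gata4* and 0.277 and 0.669 for *Hnf4a*. The ratio of *Gata4* was thus close in both libraries, and those of the other 3 factors lay nearer to 1 in VE cysts.

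HNF4A-linked genes, 16 genes of liver and yolk sac such as *Apoa1*, *Apob* and *Ttr*, varied with *Hnf4a* itself. Their sum had a correlation of 0.40 with *Hnf4a* in BELAs and 0.13 in VE cysts, and *Hnf4a* was 4.37-fold (3.56 to 5.40) and 1.94-fold (1.49 to 2.54) higher in the highest than in the lowest range of the sum. *Gata6* ran the other way in both libraries, at -0.41 and -0.34, and so did *Sox17*, at -0.33 and -0.23. *Sox7* had -0.17 in BELAs and -0.22 in VE cysts. *Cubn* of this list also entered the VE rule. The HNF4A-linked sum had a correlation of 0.43 with the AVE sum in BELAs and -0.04 in VE cysts.

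By a fixed rule, the genes most like each factor were the 3 with the highest value of the lower of its 2 correlations, among 5238 genes of at least 20 CPM in both libraries. *Gata6* was most like *Klf5*, a Krüppel-like factor (0.43 in BELAs and 0.44 in VE cysts), followed by laminin genes *Lamc1* (0.54 and 0.39) and *Lama1* (0.54 and 0.39). *Klf5* was also among the 3 for *Sox7* (0.35 and 0.33, beside *Dnmt3l* and *Gata6*) and *Sox17* (0.40 and 0.25, beside *Hs3st1* and *Flrt3*). *Gata4* was most like *Ubqln2*, the collagen IV gene *Col4a1* and *Appbp2*, all at 0.27 or less. *Hnf4a* was most like *Camsap3*, the transporter gene *Abcg2* and *Nudt11*, all at 0.30 or less. *Foxa1* had *Casp6*, *Ttr* and *Rbp4*, and *Foxa2* had *Tcf7l2*, *Msi2* and *Gata4*, with lower values of 0.16 or less. In VE cysts the 99th percentile over genes of at least 10 CPM was 0.12 for *Foxa1* and 0.13 for *Foxa2*. *Foxa1* had a thinned UMI in only 21 VE cells of BELAs and 13 of VE cysts, so its ranks rest on few cells.

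Genes linked to these factors were compared in the same way. Of 12 GATA- and SOX17-linked genes, 9 were past 2-fold lower in VE cells of BELAs than in those of VE cysts and none higher, among them the follistatin gene *Fst* (13.0 CPM in BELAs, 53.0 CPM in VE cysts) and *Col4a1* (1579 CPM in BELAs, 5180 CPM in VE cysts). Of 13 parietal endoderm genes with at least 10 CPM, 11 were lower, with a median log2 ratio of -1.21 against -0.12 for all genes. These 2 lists share 7 genes. Of 13 HNF4A-linked genes with at least 10 CPM, 6 were past 2-fold higher in BELAs, including *Apoa1* (259 CPM in BELAs, 55.9 CPM in VE cysts) and *Apoa4* (131 CPM in BELAs, 34.2 CPM in VE cysts), and 2 were lower, *Rbp4*, which encodes a retinol carrier (97.3 CPM in BELAs, 568 CPM in VE cysts), and *Apoa2* (20.0 CPM in BELAs, 56.7 CPM in VE cysts). Of 10 G2/M genes none was past 2-fold. Over all genes, 1.81% were past 2-fold higher and 3.24% lower in BELAs.

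Of 34 other transcription regulators of endoderm, 16 had at least 10 CPM in VE cells of either library. None of these was past 2-fold higher in BELAs and 2 were lower, *Klf4* (46.7 CPM in BELAs, 105 CPM in VE cysts) and *Tcf7l2*, an effector of Wnt signalling (86.0 CPM in BELAs, 183 CPM in VE cysts). *Klf5* had 164 CPM in BELAs, against 138 CPM in VE cysts, and *Hhex*, a factor of the AVE, had 21.4 CPM in BELAs, against 10.96 CPM in VE cysts. *Foxa3*, the third member of the FOXA family, was below the 10 CPM limit and is named after its values were seen, with 5.89 CPM (321 UMIs) in BELAs and 0.874 CPM (31 UMIs) in VE cysts. All 3 FOXA genes were thus measured, and *Foxa1* and *Foxa3* were higher in BELAs while *Foxa2* was lower.

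Epi cells carried few UMIs of the factors. In BELAs 259 of 868 Epi cells (29.8%) had at least 1 factor UMI, and in Epi cysts 53 of 655 (8.09%). Thinned to 40000 UMIs, these were 145 of 801 (18.1%) in BELAs and 37 of 591 (6.26%) in Epi cysts. At least 3 factors were found in 9 Epi cells of BELAs, and 7 of these were mixed cells, in which the smaller marker sum was at least 10% of both sums together. Epi cells of BELAs had *Sox17* at 1.66 CPM and *Gata6* at 1.65 CPM, against 0.147 and 0.269 CPM in Epi cells of Epi cysts, ratios of 11.3 (5.05 to 31.5) and 6.12 (3.30 to 12.6). *Gata4* had a ratio of 8.96 (3.97 to 25.0). *Foxa1* had 8 UMIs in Epi cells of BELAs and 4 in those of Epi cysts, a ratio of 1.13 (0.303 to 5.14). *Hnf4a* had 18 UMIs in Epi cells of BELAs and 0 in those of Epi cysts, where a count of 0 allows up to 0.0735 CPM. Epi cells of BELAs came from a library with many VE cells and those of Epi cysts did not, and VE genes of the rule moved with the factors, with *Dab2* at 14.3 CPM in Epi cells of BELAs. The part of free VE RNA in these values was not tested.

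*Foxa2* differed from these. It stood at 0.971 CPM in Epi cells of BELAs, against 1.10 CPM in Epi cells of Epi cysts, a ratio of 0.881 (0.597 to 1.31), while the other factors with more than 30 UMIs in Epi cells of BELAs were at least 6.12-fold higher there. None of the 7 factors reached 10 CPM in Epi cells, so none entered the comparison in which 2.76% of 7820 genes were past 2-fold in either direction (1.29% higher and 1.47% lower in BELAs).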

How the data were processed

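Single-cell RNA-seq of BELAs, VE cysts and Epi cysts was analysed, with 1 library for each, so no group had replicates. Alignment to mm10 and counting were done by the authors in Cell Ranger 4.0.0, and they deposited raw UMI counts per gene and barcode, which were used as they are. The cell filter, the lineage rule, the gene lists and the 7 members were chosen with earlier results of these data known. Levels in CPM (UMIs scaled to a common total), exact Poisson, conditional binomial and Clopper-Pearson 95% intervals, and Spearman correlations were computed with Python 3.11.15, numpy 2.4.6, scipy 1.17.1 and pandas 2.3.3. Each cell was thinned to 40000 UMIs for shares, spread and correlations, and shallower cells were left out there. Ratios across genes were called past 2-fold after adding 5 CPM, among genes with at least 10 CPM in either group. The named genes were the 7 members, the 3 most alike genes of each, listed factors with at least 10 CPM, and the 2 list members with the largest change in each direction, with other list genes given as examples or values beside a result. No doublet caller was run, and mixed cells were left out as an alternative. The ratio with its interval, the 2-fold call, the thinned totals and the correlation without counting noise were tested on simulated data. The other steps were not. *Gata6* has no coordinates or sequence here.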

Additional observations from a re-analysis of the deposited data

How the results depend on the processing

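No paired analysis was possible because each condition had 1 library. Levels kept their order under all alternatives, except that *Sox7* stood above *Foxa2* in BELAs without the highest AVE range. The log2 ratio of BELAs over VE cysts kept its sign in 9 of 9 alternatives for 6 factors and in 8 of 9 for *Foxa1* (-0.086 without the highest AVE range). With only the cells of BELAs at an AVE sum of 0, which is not among these 9, *Sox17* (1.15) and *Hnf4a* (0.688) lay on the other side of a ratio of 1. Without the highest range the median log2 ratio of the factors was -0.094. With 20 CPM added, genes past 2-fold numbered 56 higher and 99 lower in BELAs against VE cysts, and 721 higher and 309 lower in VE against Epi cells of BELAs. With 1 CPM added, 467 genes were lower in BELAs than in VE cysts. The correlation of *Gata6* and *Sox17* in BELAs was 0.38 at 20000 UMIs, 0.51 as a Pearson correlation of log2(CPM + 10) and 0.39 without the highest AVE range, and that of *Gata6* and *Hnf4a* was -0.38 on the log2 scale and -0.26 without that range. In VE cysts the log2 scale gave 0.32 and -0.080. *Gata6* and *Foxa1* in VE cysts changed sign at 20000 UMIs (0.015, against -0.11), and the cause was not tested. A second random thinning moved 9 of 42 pair correlations by over 0.05. Of 287 values of correlations under alternatives, 227 were within 0.05 of the value given, 59 moved further and 1, among those at least 0.1 from 0, changed sign. Shares of cells with a UMI moved with depth in 23 of 28 values, and *Foxa1* is limited by its 96 and 21 UMIs.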

Other observations

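The single cell of Epi cysts that was called VE had 19 *Foxa2*, 2 *Foxa1*, 26 *Lhx1*, 166 *Dab2* and 72 *Cubn* UMIs and 0 *Sox17* UMIs among 81952 UMIs. The tied cell of that library had 6 *Foxa2*, 2 *Foxa1* and 5 *Lhx1* UMIs and 0 *Dab2* UMIs among 60739 UMIs. These were the 2 cells with the most *Foxa2* UMIs in Epi cysts, and both are single cells.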
